A study of Caenorhabditis elegans with 4 samples.

Results

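Chemical transmission was followed through 44 listed genes of the nematode C. elegans, 19 that make, load, recapture or break down transmitters and 25 that build the machinery of vesicle release. The members are a list of gene symbols, and no measured value enters the rule that selects them. Of the 44 genes, 42 had a probe on the array, 32 of these had a probe bright enough to be tested, and 12868 genes were tested in all. The naming table paired no probe with unc-17, the vesicular acetylcholine transporter, or with cha-1, choline acetyltransferase, and both are not analysed here. Of the 32 tested members, 13 rose in low MV worms and 3 fell, where 21.8% of all genes tested rose and 17% fell. Of the 13 rises, 11 came from probes bright enough on all 4 arrays. Of the rises 12 lay in the release machinery, where 24 genes were tested and 0 fell, and the other was ace-3, an acetylcholinesterase gene, whereas the 3 falls were all enzymes of monoamine synthesis.

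A neuron makes its transmitter from an amino acid or from choline, and a transporter in the vesicle membrane then loads it into synaptic vesicles. Vesicles are carried down the axon by kinesins, docked and primed at the active zone, and fused by SNARE proteins when calcium enters through voltage-gated channels, after which the membrane is retrieved by endocytosis. In C. elegans, acetylcholine excites the body wall muscles and GABA inhibits them, monoamines set the state of locomotion, feeding and egg laying, and neuropeptides leave from dense core vesicles.

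RNA of whole worms was measured on 4 single-colour Agilent arrays, 2 from low MV worms and 2 from high MV worms. Both groups were the N2 wild type, an isogenic strain kept at 20 °C with food freely available, and worms of the same age were separated on day 7 to 8 of adulthood by maximum velocity (MV), the highest crawling speed on a plate without food. Worms below 0.22 mm/sec made up the low MV group and faster worms the high MV group, and neither group carried an added allele, transgene or drug. Each sample is a pool of worms, and the labels do not say whether the 2 samples of a group came from separate cultures, so the p-values measure only the spread between these samples.

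Between 86.16% and 87.71% of the 43803 gene spots stood well above background on the low MV arrays, against 84.58% to 87.03% on the high MV arrays. Values are log2 of the background-subtracted intensity after quantile normalization between the 4 arrays, called log2 signal here. A difference is low MV minus high MV, so 1 is a doubling in low MV worms. The test was limma, whose spread estimate is pooled over genes, and a gene rose or fell where its Benjamini-Hochberg adjusted p was under 0.05 and its change over 1.5-fold (0.58 on the log2 scale). By this rule 21.8% of all genes tested were higher in low MV worms and 17% lower, or 38.8% in either direction, and the members' counts are to be read against these shares. The low MV arrays shared 1 slide and scan and the high MV arrays another, so slide, scan and physical ability cannot be told apart. Permuting 2 against 2 arrays could reach no two-sided p below 0.333, and each adjusted p therefore rests on the pooled spread. In whole worms, fewer cells of a type and less RNA per cell cannot be told apart.

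The 32 tested members had a median difference of 0.37, against 0.01 for all genes tested, and ranged between −1.25 (bas-1) and 1.59 (aex-3). The difference was above 0 in 22 of the 32 members, against 50.7% of all genes. Both low MV arrays were above both high MV arrays in 19 members (42.2% of all genes) and below them in 7 (41.2%), and the groups overlapped in the other 6. Over all genes, 83.5% did not overlap. Another 4 members passed the adjusted p alone with a change under 1.5-fold, unc-18, cat-2 and rab-3 as higher and unc-25 as lower, where 30.8% of all genes passed it as higher and 29.3% as lower. The median SD between the 2 arrays of a group was 0.0622 in low MV worms and 0.125 in high MV worms over the members. Probes for 29 members were present on all 4 arrays, and of these members 11 rose and 3 fell. The probes of ace-3, cat-2 and unc-13 passed the brightness filter through the low MV arrays alone, which favours a higher low MV value in them.

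**Figure D1:**
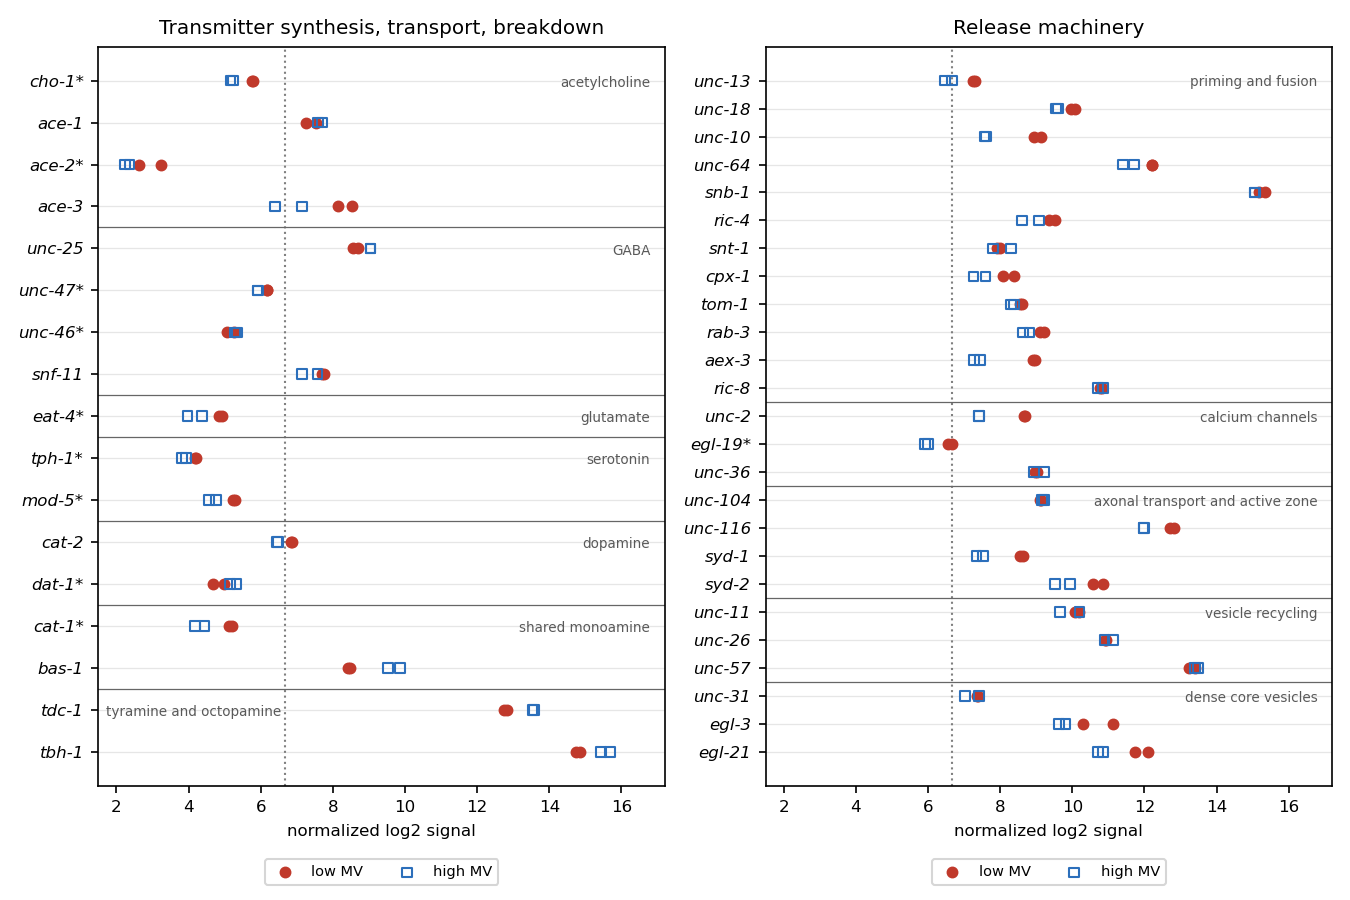
Normalized log2 signal (x axis) of the 42 members with a probe (y axis), 1 marker per array, with filled circles for low MV arrays, open squares for high MV arrays and genes grouped by transmitter or role. The dotted line is the brightness above which a probe was called present, 6.68 on the highest of the 4 arrays. An asterisk marks the 10 members with no present probe, which were left out of the main fit.

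The genes specific to 1 transmitter or to the monoamines gave a mixed picture. Of the 8 tested of 19 listed, ace-3 rose, the 3 enzymes bas-1, tdc-1 and tbh-1 fell, and 4 did not pass. The median difference of the 8 was −0.34.

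The largest fall was that of bas-1, the aromatic amino acid decarboxylase that makes the final step to both serotonin and dopamine. Its log2 signal was 8.43 and 8.46 in low MV worms, against 9.53 and 9.87 in high MV worms. The low MV values were nearly equal and about 1 unit below the nearer high MV array. The difference was −1.25 ± 0.14 (SE, n = 2 each), or 0.42 times the high MV level, with a limma adjusted p of 0.00185. All 3 present probes of bas-1 fell, with differences of −1.57 to −1.25.

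Both enzymes of tyramine and octopamine synthesis were lower in low MV worms. For tdc-1, the decarboxylase that turns tyrosine into tyramine, the log2 signal was 12.73 and 12.81 in low MV worms, against 13.58 and 13.53 in high MV worms. The difference was −0.78 ± 0.09 (SE, n = 2 each), or 0.582 times the high MV level, with a limma adjusted p of 0.00219. For tbh-1, the hydroxylase that converts tyramine to octopamine, the log2 signal was 14.74 and 14.85 in low MV worms, against 15.42 and 15.67 in high MV worms. The difference was −0.76 ± 0.12 (SE, n = 2 each), or 0.592 times the high MV level, with a limma adjusted p of 0.00518. The groups did not overlap in either gene. A second present probe of tdc-1, designed to the transcript K01C8.3b, went the other way with 7.77 and 7.60 in low MV worms, against 7.51 and 7.36 in high MV worms, a difference of 0.25 that did not pass (adjusted p over probes 0.118, limma). With the mean of its probes, tdc-1 differed by −0.26 and did not pass (limma adjusted p 0.0587).

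Besides neurons, gonadal sheath cells express tdc-1 and tbh-1. The sheath markers lim-7 and ceh-18 differed by 0.35 and 0.32 with limma adjusted p of 0.0794 and 0.0535, neither passing the rule. In the whole list of markers for spermatheca, gonad sheath and glia, 2 of 4 tested genes rose and 0 fell. The rises were fig-1 (0.72) and itx-1 (1.02), and the other 2 tested genes were lim-7 and ceh-18. Over the 7 genes of that list with a probe, the summed signal was 1616 to 1762 in low MV worms, against 1103 to 1141 in high MV worms. Germline and oocyte markers had a median difference of −0.06, with 0 of 12 rising and 1 falling. The part of these tissues in the values of tdc-1 and tbh-1 was not tested.

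The remaining monoamine genes were dim. The tyrosine hydroxylase gene cat-2, the rate-limiting enzyme of dopamine synthesis, had a log2 signal of 6.86 and 6.83 in low MV worms, against 6.47 and 6.45 in high MV worms, where it lay below the presence threshold. Its difference of 0.38 ± 0.09 (SE, n = 2 each) had a limma adjusted p of 0.0159 and was under the 1.5-fold limit. No present probe was found for tph-1 (tryptophan hydroxylase, serotonin synthesis), cat-1 (the vesicular monoamine transporter), mod-5 (serotonin reuptake) or dat-1 (dopamine reuptake). The log2 signal of cat-1 was 5.12 and 5.19 in low MV worms, against 4.18 and 4.44 in high MV worms, and that of mod-5 was 5.29 and 5.24 in low MV worms, against 4.76 and 4.57 in high MV worms. The dopamine transporter gene dat-1 had the opposite order, with 4.97 and 4.67 in low MV worms, against 5.14 and 5.33 in high MV worms. For tph-1 the values were 4.17 and 4.20 in low MV worms, against 3.81 and 3.94 in high MV worms.

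Among the acetylcholine genes, the esterases that split the transmitter could be read. The log2 signal of ace-3 was 8.13 and 8.54 in low MV worms, against 6.39 and 7.14 in high MV worms, where its probe was present on 1 of the 2 arrays. Even the lower low MV array stood about 1 unit above the higher high MV array. The difference was 1.57 ± 0.28 (SE, n = 2 each), or 2.97-fold, with a limma adjusted p of 0.00702. For ace-1, the esterase found mainly in muscle, the log2 signal was 7.24 and 7.53 in low MV worms, against 7.70 and 7.59 in high MV worms. Its difference of −0.26 (95% interval −0.59 to 0.07) did not pass, with a limma adjusted p of 0.138. The third esterase gene, ace-2, had no present probe and was not well above background on either high MV array. Its bound in high MV worms was, per array, the dimmest signal well above background or the probe's own, whichever was higher. The low MV mean lay 1.3-fold above that bound of 2.55, but the 2 low MV arrays, at 2.63 and 3.22, were far apart and the first lay close to it. In the fit without a brightness filter, its difference of 0.63 ± 0.24 (SE, n = 2 each) did not pass (limma adjusted p 0.104). The choline transporter gene cho-1, which recaptures choline for new synthesis, was below the presence threshold with 5.75 and 5.79 in low MV worms, against 5.23 and 5.16 in high MV worms.

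Neither tested GABA gene passed the rule. For unc-25, the glutamic acid decarboxylase that makes GABA, the log2 signal was 8.68 and 8.55 in low MV worms, against 9.04 and 9.04 in high MV worms. The difference of −0.43 ± 0.10 (SE, n = 2 each) had a limma adjusted p of 0.0155, with the change under 1.5-fold. Both low MV arrays were below both high MV arrays. The reuptake transporter gene snf-11 had 7.71 and 7.74 in low MV worms, against 7.15 and 7.58 in high MV worms, a difference of 0.36 (95% interval −0.04 to 0.77) that did not pass with a limma adjusted p of 0.103. The vesicular GABA transporter gene unc-47 and unc-46, whose protein sorts that transporter to vesicles, had no present probe, with differences of 0.26 and −0.14.

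Of the 4 vesicle loading genes with a probe, 0 had a present one, so that step was not tested in the main fit, although all 4 were well above background on every array. The vesicular glutamate transporter gene eat-4 was also below the presence threshold, with 4.84 and 4.94 in low MV worms, against 3.97 and 4.37 in high MV worms. In the 10 members with a probe but no present one, both low MV arrays were above both high MV arrays in 8, the exceptions being unc-46 and dat-1, where they were below. Over all genes with a probe but none present, 42.9% lay above and 26.6% below. In a fit with no filter on brightness, which tests 20464 genes and calls 20.5% higher and 14.3% lower, eat-4, mod-5, cat-1 and the calcium channel gene egl-19 passed as higher in low MV worms. Their limma adjusted p lay between 0.0175 and 0.039. At such signals the log2 difference depends on the background subtracted.

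**Figure D2:**
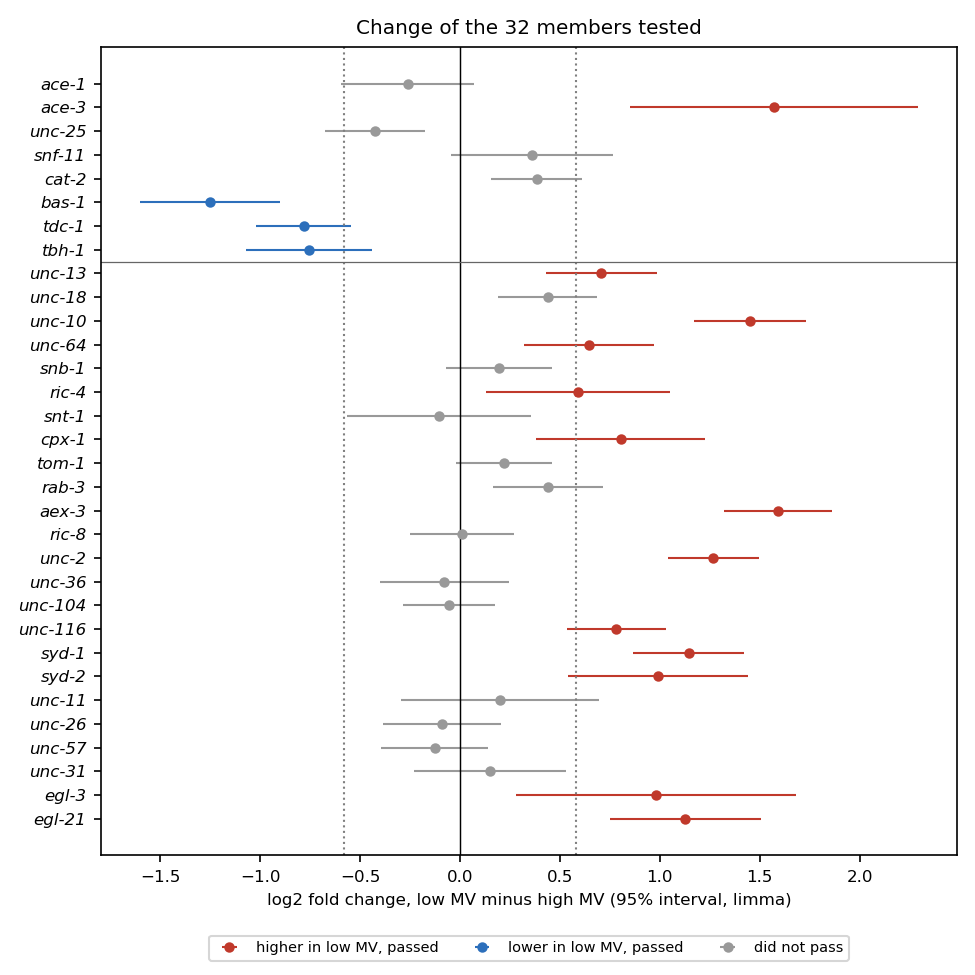
Log2 difference, low MV minus high MV (x axis), of the 32 tested members by role, with bars for the 95% limma interval and dotted lines at the 1.5-fold limits. The 12 release genes that rose lie right of the upper limit, up to 1.59 for aex-3, and the 3 monoamine enzymes that fell lie left of the lower one, down to −1.25 for bas-1.

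The release machinery moved in 1 direction where it moved. Over all genes tested, 21.8% rose and 17% fell, and both low MV arrays were above both high MV arrays in 42.2% and below in 41.2%. Of the machinery's 25 genes 24 were tested, 12 rose and 0 fell, with a median difference of 0.51. Both low MV arrays were above both high MV arrays in 16, below in 2 and overlapping in 6. Those that rose were the active zone and Rab genes unc-10, aex-3, syd-1 and syd-2, the calcium channel gene unc-2, the priming factor unc-13, the SNARE genes unc-64 and ric-4, cpx-1, the motor gene unc-116, and the neuropeptide processing genes egl-3 and egl-21.

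Some pan-neuronal markers, and some markers of other tissues, were also higher in low MV worms. Of 8 pan-neuronal markers outside the member list 7 had a probe and 6 were tested. Of these unc-33 (1.35) and ric-19 (1.02) rose, 0 fell, and the median was 0.48. The markers sng-1 (0.50), unc-119 (0.46), ehs-1 (0.15) and maco-1 (−0.49) did not pass, and all of these but maco-1 also stand in the wider pathway lists. The summed signal over the 7 probes was 17422 to 17489 in low MV worms, against 10850 to 11618 in high MV worms. Each of the 7 stood well above background on at least 1 array. Body wall muscle markers went the other way, with 1 of 11 rising, 5 falling, and a summed signal of 9778 to 12374 in low MV worms, against 17411 to 17768 in high MV worms. Markers of early embryos were also higher, with 4 of 8 rising and 2 falling, at a summed signal of 12234 to 12338 in low MV worms, against 9242 to 9427 in high MV worms. Pharyngeal muscle markers had a summed signal of 6843 to 7238 in low MV worms, against 3903 to 4699 in high MV worms, with 1 of 2 tested rising. Of 9 epidermal markers 3 rose (up to 2.78) and 1 fell (col-19, −3.57). The summed signal of the epidermal list was 69101 to 79141 in low MV worms, against 85660 to 87936 in high MV worms. Of 11 intestinal markers 0 rose and 3 fell, with a median of 0.31. Their summed signal overlapped, at 473490 to 847880 in low MV worms, against 622030 to 626030 in high MV worms. All 6 tested sperm markers were lower (median −2.15), 1 of them past the rule. The high MV arrays were far apart, with a summed signal of 2024 to 8490, against 764 to 1648 in low MV worms. The part of these tissues, of neuronal RNA share or of embryos in the body in the rises was not tested.

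Priming and fusion held 12 members, of which 6 rose and 0 fell, with a median difference of 0.51. The largest rise among all members was that of aex-3, the exchange factor that loads the vesicle GTPase RAB-3 with GTP. Its log2 signal was 8.98 and 8.91 in low MV worms, against 7.44 and 7.27 in high MV worms. The difference was 1.59 ± 0.11 (SE, n = 2 each), or 3.01-fold, with a limma adjusted p of 0.000789, and its 4 present probes were higher by 0.93 to 1.59. The gap between the groups was several times the spread within either. RAB-3 itself, from rab-3, was read at 9.21 and 9.12 in low MV worms, against 8.63 and 8.81 in high MV worms. That difference of 0.44 ± 0.11 (SE, n = 2 each) had a limma adjusted p of 0.0192 and was under the 1.5-fold limit.

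The gene unc-10 encodes RIM, the active zone scaffold that binds RAB-3 and recruits UNC-13. Its log2 signal was 9.14 and 8.94 in low MV worms, against 7.57 and 7.61 in high MV worms. The difference was 1.45 ± 0.11 (SE, n = 2 each), or 2.74-fold, with a limma adjusted p of 0.000915. UNC-13, the Munc13 priming factor, is what makes docked vesicles ready to fuse, and unc-13 had 7.31 and 7.25 in low MV worms, against 6.47 and 6.67 in high MV worms. The difference of 0.71 ± 0.11 (SE, n = 2 each), 1.63-fold, had a limma adjusted p of 0.00443, and the only probe that passed the filter did so through the low MV arrays. Tomosyn, from tom-1, inhibits priming by occupying the SNAREs of the plasma membrane. Its log2 signal of 8.55 and 8.59 in low MV worms, against 8.30 and 8.40 in high MV worms, gave a difference of 0.22 (95% interval −0.02 to 0.46) that did not pass (limma adjusted p 0.0932), and its mean over probes differed by −0.0012.

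The SNARE genes were not uniform. Syntaxin, the plasma membrane SNARE encoded by unc-64, was read at 12.21 and 12.21 in low MV worms, against 11.41 and 11.71 in high MV worms, a difference of 0.65 ± 0.13 (SE, n = 2 each, limma adjusted p 0.00938). SNAP-25, its partner encoded by ric-4, had 9.51 and 9.35 in low MV worms, against 8.60 and 9.08 in high MV worms, a difference of 0.59 ± 0.18 (SE, n = 2 each, limma adjusted p 0.0375). The ric-4 change lay just past the 1.5-fold limit, and the high MV arrays were further apart than the low MV arrays. Synaptobrevin, the vesicle SNARE encoded by snb-1, had 15.16 and 15.34 in low MV worms, against 15.05 and 15.06 in high MV worms. Its difference of 0.19 (95% interval −0.07 to 0.46) did not pass (limma adjusted p 0.161). The call for ric-4 was lost without low MV replicate 1 (0.35), low MV replicate 2 (0.44) or high MV replicate 1 (0.35), and that for unc-64 was lost without high MV replicate 1 (0.49).

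UNC-18 holds syntaxin and is needed for SNARE assembly. The log2 signal of unc-18 was 9.96 and 10.07 in low MV worms, against 9.54 and 9.62 in high MV worms, a difference of 0.44 ± 0.10 (SE, n = 2 each, limma adjusted p 0.0135) under the 1.5-fold limit, and its 6 present probes were higher by 0.44 to 0.54. Complexin, from cpx-1, clamps the assembled SNAREs until calcium arrives, and cpx-1 had 8.39 and 8.08 in low MV worms, against 7.26 and 7.59 in high MV worms. The difference of 0.81 ± 0.17 (SE, n = 2 each), 1.75-fold, had a limma adjusted p of 0.0108. Synaptotagmin, the calcium sensor encoded by snt-1, showed no such separation, as its values of 7.92 and 7.99 in low MV worms lay within the 7.81 and 8.31 of high MV worms (difference −0.10, 95% interval −0.56 to 0.36, limma adjusted p 0.642). The exchange factor gene ric-8, which acts on the G proteins that set release, had 10.76 and 10.84 in low MV worms, against 10.86 and 10.71 in high MV worms. Its difference was 0.01 (95% interval −0.25 to 0.27, limma adjusted p 0.939).

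Of the voltage-gated calcium channel genes, unc-2, the CaV2 pore subunit that triggers release at C. elegans synapses, rose. Its log2 signal was 8.67 and 8.69 in low MV worms, against 7.42 and 7.41 in high MV worms. The arrays of a group were nearly equal and the groups lay 1.27 ± 0.09 apart (SE, n = 2 each), or 2.41-fold, with a limma adjusted p of 0.000845. The auxiliary subunit gene unc-36 had 8.96 and 9.03 in low MV worms, between the 8.93 and 9.22 of high MV worms (difference −0.08, 95% interval −0.40 to 0.25, limma adjusted p 0.62). The CaV1 gene egl-19, which carries the current of muscle as well as neurons, had no present probe, with 6.67 and 6.56 in low MV worms, against 5.92 and 5.99 in high MV worms.

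Active zone assembly and axonal transport gave 3 rises among 4 genes and a median of 0.89. SYD-1 and SYD-2 (liprin-alpha) place the first scaffold of a presynaptic site. The log2 signal of syd-1 was 8.62 and 8.54 in low MV worms, against 7.34 and 7.53 in high MV worms, a difference of 1.14 ± 0.11 (SE, n = 2 each), or 2.21-fold, with a limma adjusted p of 0.00136. That of syd-2 was 10.58 and 10.86 in low MV worms, against 9.52 and 9.93 in high MV worms, a difference of 0.99 ± 0.18 (SE, n = 2 each), or 1.99-fold, with a limma adjusted p of 0.00685. In both genes every low MV array exceeded every high MV array. Of the motors, unc-116, the heavy chain of kinesin-1 that moves many cargoes in many tissues, had 12.70 and 12.82 in low MV worms, against 11.97 and 11.98 in high MV worms (difference 0.78 ± 0.10, SE, n = 2 each, limma adjusted p 0.00243). The kinesin-3 gene unc-104, whose motor carries synaptic vesicle precursors, had 9.14 and 9.12 in low MV worms, against 9.16 and 9.21 in high MV worms. Its difference was −0.05 (95% interval −0.28 to 0.18, limma adjusted p 0.639). The 5 probes of unc-116 were spread between −0.01 and 0.78 and 2 passed, and with their mean its call was lost (0.37).

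The dense core vesicle genes were egl-3, egl-21 and unc-31. EGL-3 is the proprotein convertase that cuts neuropeptide precursors, and EGL-21 the carboxypeptidase that then trims the cut ends. For egl-21 the log2 signal was 12.09 and 11.73 in low MV worms, against 10.71 and 10.85 in high MV worms, a difference of 1.13 ± 0.15 (SE, n = 2 each), or 2.19-fold, with a limma adjusted p of 0.00276. For egl-3 it was 11.12 and 10.30 in low MV worms, against 9.81 and 9.64 in high MV worms, a difference of 0.98 ± 0.27 (SE, n = 2 each), or 1.97-fold, with a limma adjusted p of 0.0287. The 2 low MV arrays were further apart in egl-3 than in any other tested member, and the difference was 0.59 without low MV replicate 1 and 1.41 without low MV replicate 2. The call was lost without high MV replicate 1 (1.05) or high MV replicate 2 (0.88). UNC-31, or CAPS, primes dense core vesicles for release. The unc-31 values of 7.40 and 7.35 in low MV worms lay between the 7.42 and 7.03 of high MV worms (difference 0.15, 95% interval −0.23 to 0.53, limma adjusted p 0.419).

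None of the 3 vesicle recycling members passed, and their median difference was −0.09. The clathrin adaptor gene unc-11 (AP180), which sorts synaptobrevin during endocytosis, had 10.18 and 10.08 in low MV worms, against 10.20 and 9.66 in high MV worms (difference 0.20, 95% interval −0.30 to 0.70, limma adjusted p 0.411). Synaptojanin, from unc-26, and endophilin, from unc-57, act together to strip the coat from new vesicles. The log2 signal of unc-26 was 10.92 and 10.93 in low MV worms, against 11.13 and 10.89 in high MV worms (difference −0.09, 95% interval −0.38 to 0.21, limma adjusted p 0.536). That of unc-57 was 13.41 and 13.24 in low MV worms, against 13.41 and 13.48 in high MV worms (difference −0.13, 95% interval −0.39 to 0.14, limma adjusted p 0.338). The intervals of unc-26 and unc-57 lie within the 1.5-fold limits and that of unc-11 does not. For unc-26, 2 probes designed to another transcript, JC8.10c.1, had differences of −0.57 and −0.85, and the second passed.

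Several probes of a gene gave a second reading from the same arrays. Of the 32 members 20 had more than 1 present probe, 67 probes in all, and in 15 of the 20 every probe lay on the same side of 0. Over all present probes 20.3% were higher by the rule and 17.9% lower. How often the probes of a gene lie on the same side over all genes was not computed. Every probe rose in 6 members, which were unc-10, unc-2, syd-1, aex-3, egl-3 and egl-21, and every probe fell in bas-1. Both a rise and a fall past the rule were found in 0 members. The 5 probes of syd-1 were higher by 1.13 to 1.43 and the 4 of egl-21 by 0.85 to 1.13. For unc-64 the 3 probes were higher by 0.57 to 0.99, the largest value on the transcript F56A8.7b, and for ric-4 the 4 probes were higher by 0.20 to 0.62. Probes of a gene share the RNA and the slide, so their number does not add samples.

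**Figure D3:**
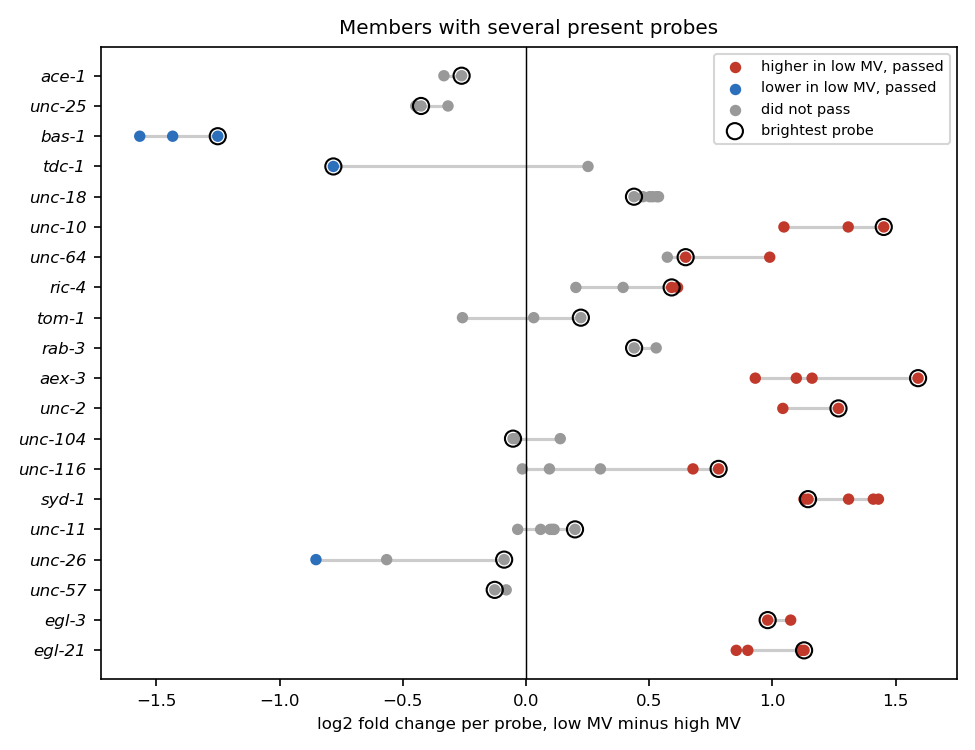
Log2 difference, low MV minus high MV (x axis), of each present probe in the 20 members with several, with a circle around the brightest probe, which stands for the gene in the text. Probes of aex-3, syd-1, unc-10, unc-2, egl-3 and egl-21 all lie above the 1.5-fold limit, whereas those of tdc-1 (−0.78 and 0.25) lie on both sides of 0.

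Rises were more frequent among dim genes in the whole table, so members were also read by brightness. Below a mean log2 signal of 10, 28.5% of 5563 genes rose and 20.2% fell, and of 20 members 8 rose and 1 fell, with a median of 0.41 against 0.13 for all these genes. At or above 10, 16.6% of 7305 genes rose and 14.6% fell, and of 12 members 5 rose and 2 fell, with a median of 0.20 against −0.04.

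The number of rises depended on scaling and background correction, whereas the 3 falls passed under every scaling tried. Scaled to 8 spike-in probes, 5 members rose (ace-3, unc-10, unc-2, syd-1 and aex-3) and the median of all genes was −0.35, with 7.76% of all genes higher and 21.2% lower. With normexp background correction 5 rose (unc-10, unc-116, syd-2, aex-3 and egl-21), where 11.2% of all genes were higher and 9.78% lower. A plain test on each gene's own spread gave 8 rises at an unadjusted p, where 17.6% of all genes were higher and 14.8% lower. After Benjamini-Hochberg adjustment of that test 5 rose and 1 fell, where 6.25% of all genes were higher and 5.97% lower. It is not the paper's procedure, which merges such a test with a median ratio test, both against permuted samples, and was not run here. The genes unc-10 and aex-3 rose in all 15 alternatives of scaling, background, filter, probe rule, test and left-out array, the only 2 of the 16 called members to do so.

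**Figure D4:**
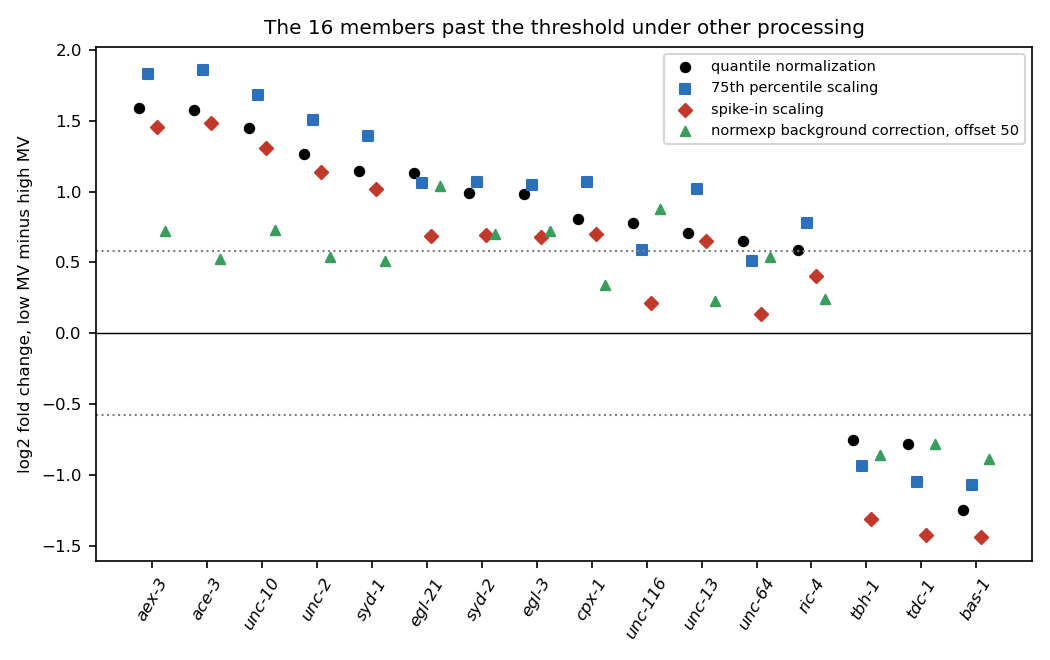
Log2 difference, low MV minus high MV (y axis), of the 16 members past the threshold (x axis), with dotted lines at the 1.5-fold limits, under quantile normalization, scaling to the 75th percentile, scaling to spike-in probes and normexp background correction. No member changes sign; the spike-in values of unc-64 (0.14) and unc-116 (0.22) lie nearest 0.

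Genes of the same pathways outside the member list were read from 7 lists, 143 genes in all. Of those tested 42 rose, 10 fell and 67 did not pass, with a median of 0.38, where 21.8% of all genes rose and 17% fell. Presynaptic ion channels gave 6 rises and 0 falls among 10 genes, and G protein control of release 8 rises and 1 fall among 18. Dense core vesicle maturation gave 8 and 2 among 18, axonal transport 6 and 1 among 14, and other vesicle fusion and active zone genes 7 and 1 among 23. Vesicle recycling gave 3 rises and 0 falls among 14, with a median of 0.28. Other genes of transmitter metabolism and transport stood at 4 rises and 5 falls among 22, with a median of 0.04.

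The 5 largest rises in these lists were scd-2 (1.81), an ALK receptor kinase with a role in synapse growth, pah-1 (1.71), phenylalanine hydroxylase, slo-1 (1.56), the BK potassium channel that curbs release, unc-79 (1.55), a partner of the NCA sodium leak channel, and sad-1 (1.54), a kinase of presynaptic assembly. Their limma adjusted p lay between 0.00072 and 0.00145. For slo-1 the log2 signal was 7.89 and 7.87 in low MV worms, against 6.36 and 6.28 in high MV worms. The 5 largest falls were pcp-2 (−2.04), a predicted prolyl carboxypeptidase, comt-4 (−2.02) and comt-5 (−1.85), of the catechol methyltransferase family, vglu-3 (−1.57), a relative of the vesicular glutamate transporters, and amx-3 (−1.27), an amine oxidase relative. Their limma adjusted p lay between 0.00089 and 0.00147. For comt-4 the log2 signal was 8.27 and 8.45 in low MV worms, against 10.59 and 10.17 in high MV worms. In both genes the gap between the groups exceeded the spread within either. The vglu-3 probe was present on the high MV arrays alone and the slo-1 probe on the low MV arrays alone, so each passed the brightness filter through the group where it was higher. Of the 42 rises in these lists 6 were not present on both high MV arrays, and of the 10 falls 2 were not present on both low MV arrays. With normexp, slo-1 (0.44) and vglu-3 (−0.55) no longer passed, and with the mean of probes comt-4 differed by −3.07 and comt-5 by −0.87.

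**Figure D5:**
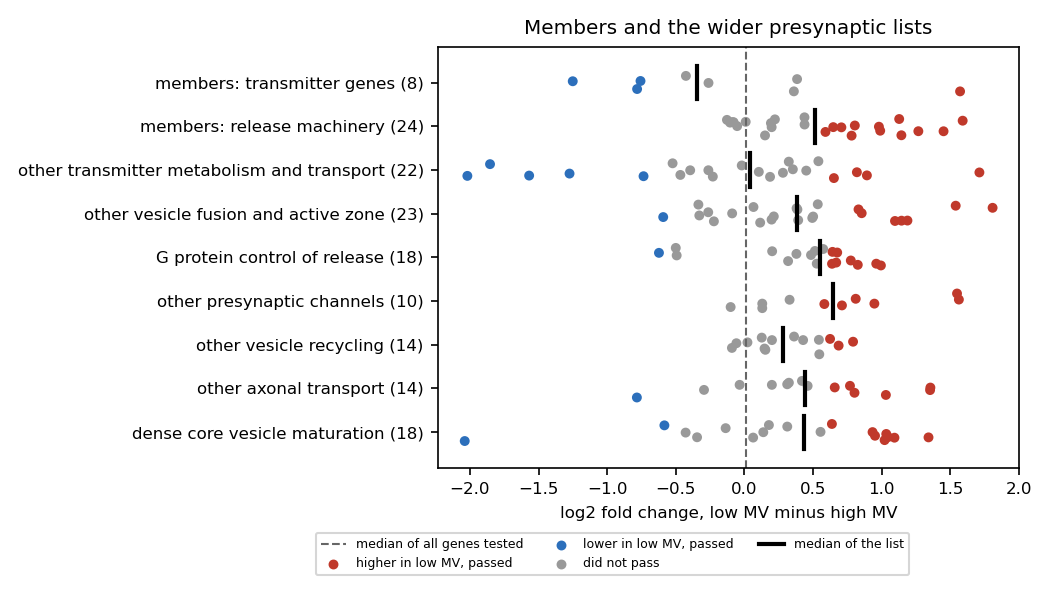
Log2 difference, low MV minus high MV (x axis), of the tested genes in the members' transmitter and release groups and in each of the 7 further lists (y axis, with the number of genes), 1 point per gene, with a black bar at the list's median and a dashed line at the median of all genes tested (0.01). The medians of the further lists run between 0.04 for other transmitter metabolism and transport and 0.65 for other presynaptic channels.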

How the data were processed

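Worm RNA, 2 samples from each MV group, was hybridized to single-colour arrays. The authors extracted spot intensities with Feature Extraction 11.5.1.1, and the intensity after the software's background subtraction was used as deposited. The deposited table of log2 values was rebuilt to within 5e-09 by quantile normalization of log2 median brightness over all spots, and served as an alternative. Here, the log2 intensities of the non-control spots were quantile normalized, 62 probes with an outlier flag were dropped, and spots of a probe were averaged. A probe was called present where it exceeded the meeting point of 2 fitted Gaussian densities (6.66 to 6.68) on both arrays of at least 1 group. The brightest present probe stood for a gene. Of 28477 probe names, 22720 were matched to a symbol through the RefSeq table of WBcel235, from which no coordinates were taken since the design rests on an earlier build, 635 were kept as sequence names and 5122 named no gene.

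Groups were compared in R 4.3.3 with limma 3.58.1, adjusting by Benjamini-Hochberg over all 12868 tested genes, and figures were drawn in Python 3.11.15 with matplotlib 3.10.9. The limma step was also run on simulated data with known changes, built on the means and spreads of the tested genes. All members are named, and from the wider lists the 5 largest rises and 5 largest falls past the threshold. The members, gene lists, tests and alternatives were chosen with earlier results of these data known. Samples were treated as unpaired. Deviations of same-numbered samples correlated at −0.04 over genes, which with 2 arrays a group cannot show whether the replicate numbers pair samples. Alternatives were 2 other scalings, the deposited table, 2 other filters and normexp with an offset of 50. Normexp used the median spot brightness, since the files used here hold no mean. Others were the mean of a gene's probes, a trended and robust variance prior, a plain t-test, a 2-fold limit and adjusted p alone. The last were the replicate number as a block and each array left out.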

Additional observations from a re-analysis of the deposited data

How the results depend on the processing

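With 2 arrays a group, the number of arrays limits the precision. The main fit gave 13 rises and 3 falls among members (12 and 0 in the release machinery, 1 and 3 among transmitter genes, median 0.37). Scaling to the 75th percentile gave 3 rises among 8 transmitter genes and a median over members of 0.56. At that scaling 3315 of 12969 genes were higher and 2496 lower. Spike-in scaling gave 5 rises, 4 in the machinery, and a median of 0.19, with 1007 of all genes higher and 2752 lower, against 2803 and 2189. Normexp gave 5 rises, 5 in the machinery and 0 among transmitter genes, and a median of 0.13, with 1517 of all genes higher and 1322 lower. With no filter on dim probes 4 of the 17 transmitter genes with a probe rose, where 20.5% of all genes were higher and 14.3% lower. At adjusted p alone 2 of 8 rose, where 30.8% of all genes were higher. The filter on spots well above background also gave 4 rises among transmitter genes, and its share over all genes is not given here. The plain t-test gave 8 rises unadjusted, 0 among transmitter genes. After Benjamini-Hochberg adjustment it gave 5 rises, 5 in the machinery and 0 among transmitter genes, and 1 fall, a transmitter gene. A 2-fold limit left 6 rises, 5 in the machinery, and 1 fall, a transmitter gene. The share of all genes past that limit is not given here. Leaving out each array gave a median over members of 0.35 to 0.47, with the highest without high MV replicate 2. The cause of these differences was not tested. The deposited table, the variance prior and the mean of probes kept each count within 1.5 times. A fit with the replicate block gave 13 rises and 3 falls and changed no call, and the labels do not say whether the numbers pair samples. A slide block could not be fitted, since each slide holds 1 group.

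The sign turned only in members that had not passed. These were ace-1 (0.019), snb-1 (−0.0043), snt-1 (0.15), unc-36 (0.11) and unc-104 (0.12) with 75th percentile scaling, snb-1 (−0.38), ric-8 (−0.36) and unc-11 (−0.076) with spike-in scaling, and tom-1 (−0.0012) and unc-104 (0.015) with the mean of probes. With 1 array left out they were ric-8 (−0.061 to 0.081), unc-26 (−0.21 to 0.031), snt-1 (−0.35 to 0.14), unc-36 (−0.22 to 0.063), unc-31 (−0.043 to 0.34) and unc-11 (−0.073 to 0.46). Among called members, ric-4 lost its call in 11 of 15 alternatives, egl-3 in 8 and unc-64 in 5.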

Other observations

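Within the wider lists, subunits and enzymes of 1 complex or pathway could be read side by side. In neuropeptide amidation, pghm-1 (1.34) and pgal-1 (1.05) rose with limma adjusted p of 0.000952 and 0.00568, whereas pamn-1 (0.14, adjusted p 0.549) did not pass and its groups overlapped. The gene of the 7B2 chaperone of the convertase EGL-3, sbt-1 (1.03, adjusted p 0.00188), rose. Of the G proteins, the Gq alpha gene egl-30 (1.00, adjusted p 0.00244) and the beta subunit genes gpb-1 (0.78, adjusted p 0.00803) and gpb-2 (0.83, adjusted p 0.00456) rose, and the Go alpha gene goa-1 (0.57, adjusted p 0.00645) lay just under the 1.5-fold limit. Of the genes for regulators of these alpha subunits, eat-16 (0.64, adjusted p 0.00623) rose and egl-10 (−0.62, adjusted p 0.0417) fell, but the egl-10 probe was present on the high MV arrays alone, so that it passed the brightness filter through the group where it was higher. The 2 kinesin light chain genes went in opposite directions, with klc-2 at 0.77 and klc-1 at −0.78, both past the rule. These genes were chosen after their values were seen.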
